A study of Mus musculus with 38 samples.

Results

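The association of the genome with lamin B1 (LMNB1) was measured in wild-type (WT) epiblast-like cells (EpiLCs), as the difference between 3 LMNB1 libraries and 3 background (IGG) libraries. These are 6 of the 38 samples in the series, and the difference was tested for 70381 of the 78202 genes in the tables and for all 1241 families of transposable elements (TEs). The study compared mouse embryonic stem cells (mESCs) of several genotypes, with and without lamins and the lamin B receptor, in the naive state and after differentiation to EpiLCs. Both stages of the WT line have LMNB1 and IGG libraries, and the 6 naive libraries serve here only for comparison. EpiLCs were made from WT naive mESCs by 48 h in N2B27 medium with 20 ng/mL FGF and 12 ng/mL activin A, and each replicate held 200000 cells. All 6 libraries share the WT genotype and this treatment, and the 2 groups differ in the antibody.

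Lamin B1 is one of the intermediate filament proteins that build the nuclear lamina, the meshwork under the inner nuclear membrane. Chromatin in contact with the lamina forms lamina-associated domains, which are known to be poor in genes, rich in A and T, and mostly silent, whereas gene-dense and active chromatin lies in the nuclear interior. In CUT&RUN a nuclease is tethered to an antibody in permeabilised cells and releases the DNA close to the antibody's target. EpiLCs model the epiblast after implantation, which has left naive pluripotency and is primed to form the germ layers.

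Per the study's methods the IGG control was a rabbit anti-mouse secondary antibody used beside the LAP2B experiment, so the antibody and the experiment cannot be told apart in any value below. The WT line was reported to hold subpopulations without the Y chromosome or with trisomy of chromosomes 6 and 8. Reads recovered from the gene table summed to 29522895 to 33979106 per LMNB1 library and 14058614 to 36280278 per IGG library, with 77 to 90 and 43 to 108 reads at the median gene. Replicates of one antibody had a Spearman correlation of 0.957 to 0.97 across genes and differed by more than counting error (chi-square per degree of freedom of 3.79 to 7.41). The labels do not say whether replicates were separate cultures, so p-values measure the spread between libraries. Reads come from genomic DNA, and expression markers cannot check the cell type here.

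A gene's deposited value is the sum of signal over the 1 kb bins it touches. In each library it was divided by the value of the median gene, and the result is called the relative value. Levels are compared between genes only as the relative level per kb, in which the median gene again equals 1. The log2 difference is LMNB1 minus IGG of log2(relative value + 0.1), tested with limma and called at a Benjamini-Hochberg adjusted p under 0.05 over all genes.

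LMNB1 was higher than IGG at 17822 genes (25.3% of those tested) and lower at 16029 (22.8%), so 48.1% of genes were called. The difference reached 2-fold at 7153 of the higher genes (10.2%) and at only 1688 of the lower ones (2.40%). The middle of the distribution lay at -0.01 on the log2 scale, with the 10th percentile at -0.75 and the 90th at 1.00, so the upper tail was the longer. The 3 LMNB1 libraries lay wholly above the 3 IGG libraries at 20202 genes (28.7%) and wholly below at 19168 (27.2%). Among protein-coding genes the balance was turned, with 5591 of 20867 higher (26.8%) and 8212 lower (39.4%). The split depends on the scaling: with each library divided by its mean, 12360 genes were higher and 24671 lower, around a median shifted to -0.24, and on the deposited spike-in scale 24430 were higher and 6 lower, around a median of 0.84. All directions below are therefore relative to the median gene.

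The difference moved with base composition. Across 70313 genes the Spearman correlation of the log2 difference with GC content was -0.70, a description across genes that share libraries and neighbourhoods. The level per kb correlated with GC at -0.22, -0.37 and -0.15 in the LMNB1 libraries and at 0.68, 0.53 and 0.59 in the IGG libraries, so it moved with GC for both antibodies. In the tenth of genes with least GC, 5399 of 7046 were higher and 32 lower, with a median difference of 1.04 (log2). In the tenth with most GC, 131 of 7031 were higher and 3930 lower, with a median of -0.65. As an alternative chosen after seeing the data, each library was centred within 20 classes of GC content (the GC correction), which left 9051 genes higher (12.9%) and 9720 lower (13.8%). The part of GC content in each result was not tested further, and counts with the correction are given beside the main gene groups.

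**Figure D1:**
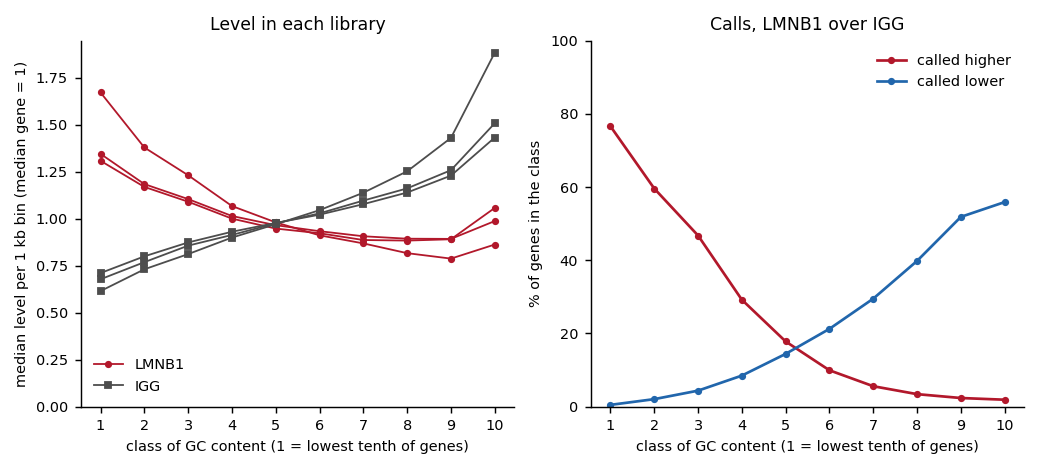
Left, median level per 1 kb bin (median gene = 1) of genes in 10 classes of GC content in each of the 3 LMNB1 and 3 IGG libraries. Right, percent of genes in each class called higher or lower for LMNB1 over IGG. LMNB1 levels fell from the first class and rose again in the last, IGG levels were highest at high GC, and calls went from 76.6% higher in the first class to 55.9% lower in the last.

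The genes named here were called, encode proteins, span at least 10 kb and lie at least 1 Mb apart. The rule also asked that their LMNB1 and IGG libraries not overlap. Among the 10 highest were genes of pheromone and olfactory receptors and of enamel proteins. Highest was Vmn2r84 (chr10:130213794-130230201, GRCm39), a vomeronasal pheromone receptor, with relative values of 10.7, 13.4 and 10.2 for LMNB1 and 2.09, 1.98 and 3.36 for IGG. Its log2 difference was 2.19 (SE 0.16, adjusted p = 5.7e-13). Amelx (chrX:167959108-167970205), which encodes the enamel matrix protein amelogenin and lies inside Arhgap6, had 2.70, 3.54 and 3.04 against 0.765, 0.419 and 0.806, a difference of 2.10 (SE 0.23, adjusted p = 3.0e-09). Ambn, for the enamel protein ameloblastin, had 6.74, 8.06 and 5.73 against 1.51, 1.58 and 1.48, a difference of 2.08. These enamel genes lie on different chromosomes. The other 7 of the 10 highest were the vomeronasal receptors Vmn2r15 (2.05) and Vmn1r28 (2.01), the complement receptor of B cells Cr2 (1.98), the olfactory receptors Or5h22 (1.96) and Or4k47 (1.95), the neuronal scaffold gene Cnksr2 (1.95) and the interferon-inducible Ifi204 (1.95). Cr2 had LMNB1 values of 26.8, 34.5 and 25.0 and IGG values of 6.63, 7.23 and 7.65.

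The 10 lowest had smaller differences than the 10 highest. Fbxo27 (chr7:28386913-28399811), an F-box gene, had relative values of 0.649, 1.40 and 0.778 for LMNB1 and 3.04, 2.40 and 2.06 for IGG, a log2 difference of -1.37 (SE 0.24, adjusted p = 1.5e-05). Cuta (chr17:27152793-27165735), which shares bins with other genes, among them Phf1, had 0.818, 1.00 and 1.32 against 3.00, 2.60 and 2.77, a difference of -1.36. Smarcd1, a subunit of the BAF chromatin remodeller, had 2.52, 1.43 and 1.53 against 4.84, 4.44 and 4.43, a difference of -1.32. The rule that chose these genes asked that the libraries not overlap. The others were Mbd3 (-1.31), a subunit of the NuRD corepressor, Fuz (-1.31), a planar cell polarity effector, Fam43b (-1.31), the methyltransferase-like gene Mettl23 (-1.30), Fahd1 (-1.29), the potassium channel gene Kcnk4 (-1.28) and Neurl4 (-1.28). All 20 genes kept their direction and their call with the GC correction, and all but Fahd1 (-1.35) shrank, Vmn2r84 from 2.19 to 1.07 and Cuta from -1.36 to -0.76.

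**Figure D2:**
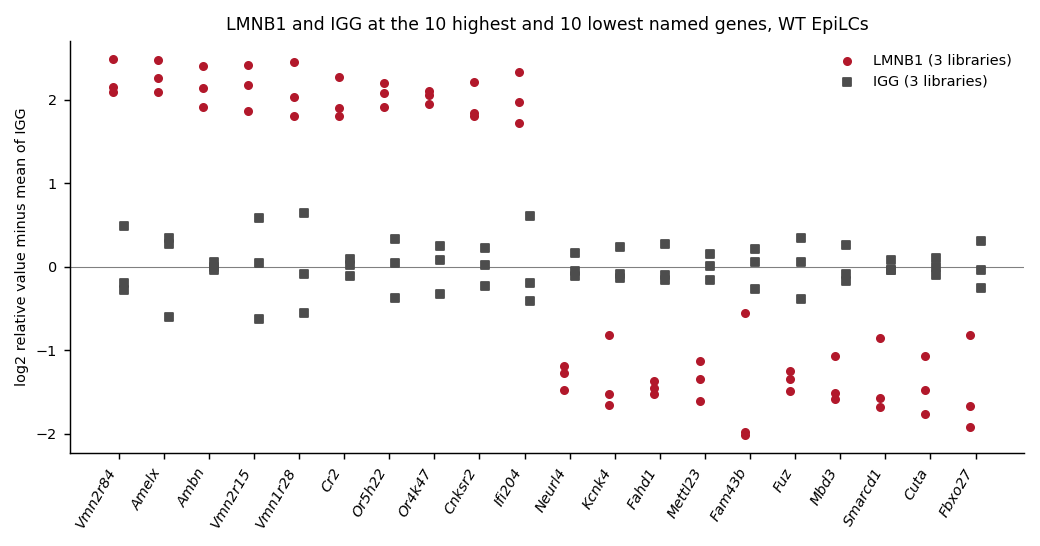
Relative value in each library at the 10 highest and 10 lowest named genes, on a log2 scale and minus the mean of the 3 IGG libraries of that gene. Circles are LMNB1 and squares IGG libraries (3 each), which do not overlap at any of the 20 genes because the rule that chose them asked for this.

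The promoters of the first 2 genes at each end of this ranking differ in how many CG dinucleotides they hold, and they are shown for that reason. Each sequence is the 250 bases before a RefSeq start of the gene, read on the strand of the gene, with CG in capitals, and was placed at its only exact match in GRCm39. The letters searched were CG, which reads the same on both strands and cannot overlap itself. Vmn2r84 (chr10:130230111-130230360, minus strand) held 0 CG, as did 7.9% of the 32851 RefSeq promoters. Amelx (chrX:167970206-167970455, minus strand) held 2, and 29.0% of promoters held as few or fewer. Fbxo27 (chr7:28392024-28392273, plus strand, the first of 4 entries) held 10, and 37.8% of promoters held as many or more. Cuta (chr17:27158433-27158682, minus strand, the first of 2 entries) held 26, and 9.6% of promoters held as many or more.
Vmn2r84: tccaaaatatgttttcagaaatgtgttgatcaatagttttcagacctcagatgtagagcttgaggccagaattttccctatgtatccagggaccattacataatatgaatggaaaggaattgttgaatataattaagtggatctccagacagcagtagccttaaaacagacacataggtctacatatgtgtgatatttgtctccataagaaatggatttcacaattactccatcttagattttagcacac
Amelx: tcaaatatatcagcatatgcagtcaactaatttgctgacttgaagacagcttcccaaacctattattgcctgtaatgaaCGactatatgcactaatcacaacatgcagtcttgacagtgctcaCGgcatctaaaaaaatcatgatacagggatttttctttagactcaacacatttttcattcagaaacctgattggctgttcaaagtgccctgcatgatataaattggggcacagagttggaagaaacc
Fbxo27: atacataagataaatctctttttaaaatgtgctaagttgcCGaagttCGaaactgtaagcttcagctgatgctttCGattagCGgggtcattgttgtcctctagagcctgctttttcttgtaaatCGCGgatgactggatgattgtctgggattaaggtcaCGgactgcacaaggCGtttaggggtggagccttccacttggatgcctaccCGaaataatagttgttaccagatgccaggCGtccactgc
Cuta: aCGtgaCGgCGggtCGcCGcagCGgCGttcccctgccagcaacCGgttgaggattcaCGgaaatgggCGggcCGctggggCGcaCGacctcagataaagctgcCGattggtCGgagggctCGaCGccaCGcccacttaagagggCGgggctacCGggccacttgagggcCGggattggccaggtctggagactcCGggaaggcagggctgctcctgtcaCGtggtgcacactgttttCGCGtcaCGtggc

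The same order was found over protein-coding genes, for 20863 of which the window before the gene start in GENCODE M39 could be read. Genes called higher held a median of 3 CG, genes called lower 9, and all genes 6. With 0 or 1 CG, 1995 of 3659 genes were higher (54.5%) and 576 lower (15.7%). With at least 20 CG, 382 of 2487 were higher (15.4%) and 1230 lower (49.5%). The shares levelled off above 10 CG, since of 5124 genes with 10 to 19 CG 822 were higher and 2630 lower. After the GC correction 22.9% were higher with 0 or 1 CG and 11.2% with at least 20, and 38.1% were lower with at least 20.

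Most tested receptors of smell, pheromones and bitter taste had more LMNB1 than IGG. These are tandem gene families, each silent outside its sensory neurons or taste cells. Of 1330 olfactory receptors tested (1383 in the tables), 1098 were higher and 22 lower, with a median log2 difference of 1.19 beside -0.01 over all genes. Their median level per kb was 1.49, 1.92 and 1.47 in the LMNB1 libraries and 0.641, 0.709 and 0.726 in the IGG libraries, so LMNB1 lay above the median gene and IGG below it in every library. Of the 155 class I receptors, 154 of which lie on chromosome 7, 147 were higher and 0 lower, and of the 1175 class II receptors 951 were higher and 22 lower. After the GC correction 318 of the 1330 were higher and 38 lower, around a median of 0.29, beside 12.9% of all genes higher.

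The olfactory clusters were not alike. On chromosome 2, 335 of 346 receptors were higher and 0 lower, with a median difference of 1.41, and on chromosome 10, 70 of 71 were higher, with the largest median of any chromosome (1.64). On chromosome 11, 54 of 102 were higher and 5 lower (median 0.65). On chromosome 4, 4 of 30 were higher and 4 lower (median -0.22), and on chromosome 15, 0 of 10 were higher and 2 lower (median -0.37). The highest receptor was Or5g23 on chromosome 2, with relative values of 2.94, 3.90 and 2.34 for LMNB1 and 0.426, 0.186 and 0.889 for IGG (log2 difference 2.55, SE 0.29, adjusted p = 7.0e-09). The lowest was the pseudogene Or13c7e-ps1 on chromosome 4, with 0.156, 0.220 and 0.178 against 0.588, 0.605 and 0.537 (-1.26, SE 0.30). Of the 22 receptors called lower, 4 lay on chromosome 4 between 43694784 and 43840201 (Or13c7e-ps1, Or13c7c, Or13e8 and Or13j1), and 2 were the neighbours Or2at1 (-1.01) and Or2at4 (-0.77) on chromosome 7.

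Of 113 vomeronasal type 2 receptors, which detect peptide pheromones, 112 were higher and 0 lower, with a median of 1.31, and 59 were higher with the GC correction. The exception, Vmn2r129, was not called (0.30, adjusted p = 0.35), and its sign turned with the GC correction (-0.82, adjusted p = 0.0046). Of 150 vomeronasal type 1 receptors tested (232 in the tables), 123 were higher and 0 lower (median 0.97), falling to 23 higher and 6 lower with the correction. Of 39 bitter taste receptors, 30 were higher and 0 lower (median 1.1), with 3 higher after correction. With the correction the vomeronasal type 1 share was near the 12.9% of all genes called higher, and the bitter taste share was below it. Trace amine receptors, the small second family of olfactory neurons, differed from these in their counts: 1 of 16 was higher, Taar6 (0.76, adjusted p = 0.039), and the median was 0.19. That call was lost without any one of LMNB1 replicates 1 and 2 and IGG replicates 1 and 2, with adjusted p between 0.092 and 0.12.

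The immune receptor families of lymphocytes differed in their counts. Of 331 immunoglobulin V segments, 254 were higher and 0 lower (median 0.96), at a level per kb of 1.88, 2.35 and 1.96 for LMNB1 against 0.923, 0.971 and 0.978 for IGG. Of 159 T cell receptor V segments, 33 were higher (20.8%, below the 25.3% of all genes) and 0 lower (median 0.45), a count that fell to 15 without LMNB1 replicate 2. After the GC correction 91 immunoglobulin and 35 T cell receptor segments were higher, around medians of 0.44 and 0.46. Both corrected shares were above the 12.9% of all genes. Of 31 killer cell lectin-like receptors, which natural killer cells display, 29 were higher (median 1.30), and 13 after the GC correction, with Klri2 highest (1.84). The exception was Klrg2, which lies apart from the cluster of the others on chromosome 6 and was called lower (-0.68, SE 0.17, adjusted p = 0.0015), a call lost with the GC correction (adjusted p = 0.063). Defensins, antimicrobial peptides, had 29 of 71 higher and 6 lower (median 0.55). After the correction 6 were higher and 4 lower, below the 12.9% and 13.8% of all genes.

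Other gene families ranged from mostly higher to shares near the background. Of 18 major urinary protein genes, made in the liver, 15 were higher and 0 lower (median 0.75), and 0 were called with the GC correction. Of 58 Serpina and Serpinb protease inhibitor genes, 28 were higher and 0 lower (median 0.46), with 20 higher after correction. Of 108 Cyp2, Cyp3 and Cyp4 genes, which encode cytochrome P450 enzymes, 62 were higher and 15 lower (median 0.66), and 40 higher and 9 lower after correction, from Cyp2j7 (1.48) to Cyp2d10 (-0.88). Of 65 Pramel genes, expressed in germ cells and the early embryo, 48 were higher and 0 lower (median 0.76), with 16 higher after correction. Keratin-associated proteins of the hair shaft had 26 of 99 higher (26.3%, near the share of all genes) and 12 lower around a median of -0.05, and 13 higher and 0 lower after correction. Zinc finger genes named Zfp had 108 of 405 higher (26.7%) and 141 lower (34.8%), near the shares of protein-coding genes, and 47 higher and 105 lower after correction, from Zfp947 (1.84) to Zfp688 (-1.20). Clustered protocadherins, cell surface proteins of neurons, had 14 of 57 higher (24.6%) and 22 lower (38.6%), also near those shares, and 3 higher and 25 lower after correction.

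**Figure D3:**
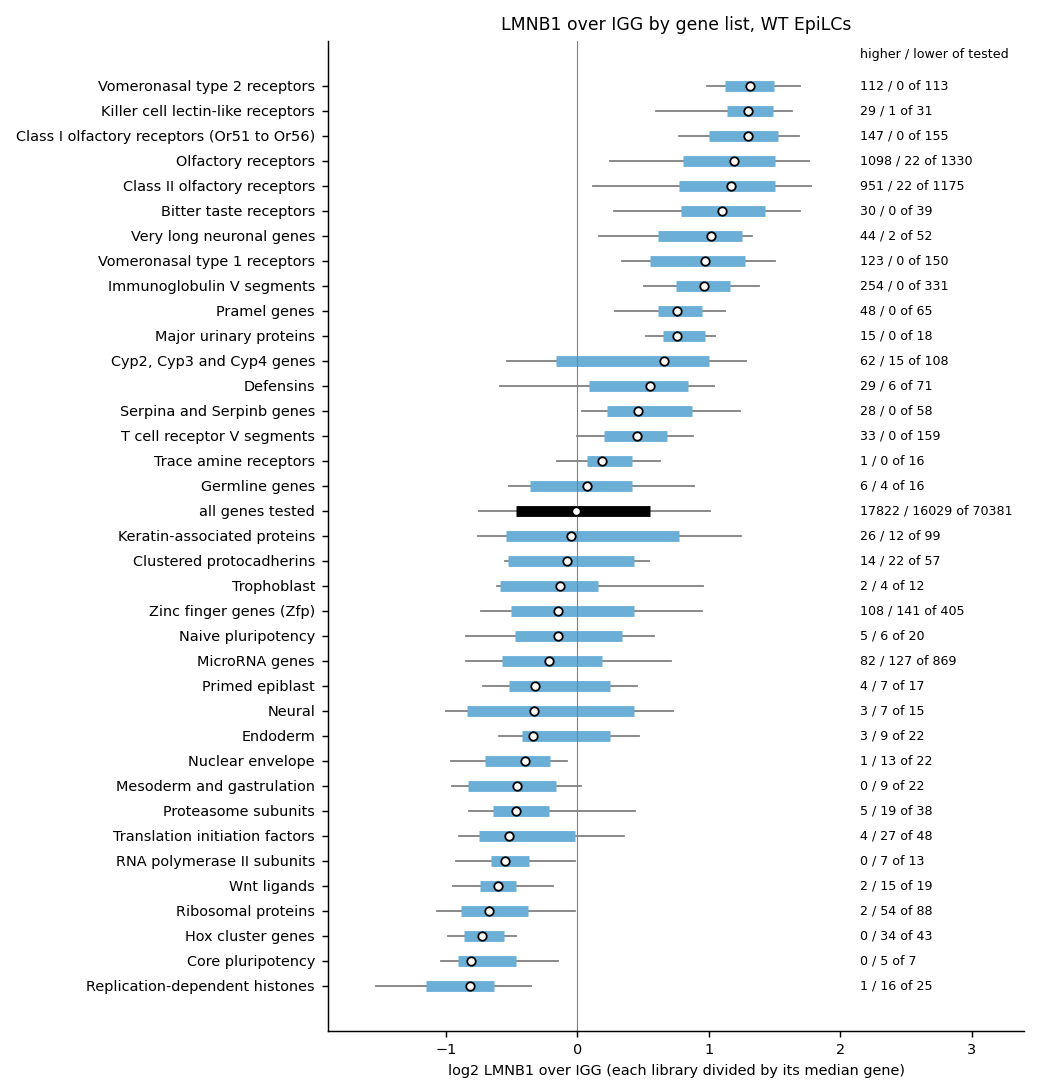
Log2 LMNB1 over IGG of the genes in each list, with the median (white point), the middle 50% of genes (thick bar) and the 10th to 90th percentile (thin line), beside all genes tested (black). Numbers at the right give genes called higher and lower of those tested. The lists run from vomeronasal type 2 receptors (median 1.31) to replication-dependent histones (median -0.82), of which 25 of 70 passed the filter on low values.

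Very long genes of neurons, which encode adhesion molecules, receptors and channels, were mostly higher too. Of 52 entries under 51 symbols, 44 were higher and 2 lower, with a median of 1.02, and 38 were higher and 6 lower with the GC correction. Their median level per kb was 1.32, 1.58 and 1.30 for LMNB1 and 0.702, 0.743 and 0.771 for IGG. Dmd, for the muscle protein dystrophin, had relative values of 383, 461 and 361 for LMNB1 against 138, 163 and 180 for IGG (log2 difference 1.33), and the receptor phosphatase gene Ptprd had 625, 788 and 614 against 253, 289 and 311 (1.24). The 2 lower genes were Csmd2 (-0.52, adjusted p = 5.0e-05) and the RNA-binding protein gene Rbfox1 (-0.29, adjusted p = 0.018). Relatives of Csmd2 went the other way, Csmd3 with a difference of 1.36 and Csmd1 with 0.55. For Csmd1, Opcml, Fhit, Magi2 and Unc5d the sign turned with the GC correction, to between -0.06 and -0.12.

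Among protein-coding genes in general, the balance differed between classes of length. Over 300 kb, 405 of 576 genes were higher and 75 lower (median 0.67), and 336 higher and 140 lower after the GC correction. From 100 to 300 kb the counts were 844 higher and 618 lower of 1985, which turned to 576 higher and 779 lower after the correction. From 10 to 30 kb they were 1219 higher and 3138 lower of 6455 (median -0.36), and 652 and 1562 after the correction. Under 1 kb, 127 of 410 genes were higher (31.0%) and 46 lower (11.2%), with a median of 0.21, beside 26.8% and 39.4% of protein-coding genes. With the GC correction 46 of the 410 were higher and 12 lower, beside 3178 and 5105 of 20867 protein-coding genes. The number of other tested genes within 500 kb ordered the genes as well: with 0 to 5 neighbours 553 of 847 genes were higher and 19 lower (median 0.86), and with more than 40 neighbours 3250 of 27489 were higher and 11446 lower (median -0.42). After the correction these became 169 higher and 32 lower, and 1888 higher and 5103 lower.

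Housekeeping families had negative medians. Of 88 ribosomal protein genes, 54 were lower and 2 higher, with a median of -0.67, and their median level per kb was 0.875, 0.746 and 0.852 for LMNB1 against 1.49, 1.38 and 1.24 for IGG. Rplp1, of the ribosomal stalk, was the lowest (-1.53), and the highest was Rpl10l (1.31, SE 0.29, adjusted p = 0.00033), a retrogene copy of Rpl10 used in the testis. Of 48 translation initiation factors, 27 were lower and 4 higher (median -0.52), from Eif1 (-1.05) to Eif3e (0.99). With the GC correction 0 of the 48 were higher. Eif3e fell to 0.04 (adjusted p = 0.84), and Eif1 lost its call (adjusted p = 0.16). Of 38 proteasome subunits, 19 were lower and 5 higher (median -0.47), and of 13 subunits of RNA polymerase II, 7 were lower and 0 higher (median -0.55). The lower shares of these lists were 61% (ribosomal proteins), 56% (initiation factors), 50% (proteasome) and 54% (polymerase), beside 39.4% of protein-coding genes. With the GC correction 19 ribosomal protein, 21 initiation factor, 13 proteasome and 3 polymerase genes were lower, beside 5105 of 20867 protein-coding genes, so the ribosomal protein and polymerase shares were no larger than that of protein-coding genes.

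The list of histone genes, taken by symbol and mostly replication-dependent genes active in S phase, had the lowest median of the lists (-0.82), with 16 lower and 1 higher of the 25 that passed the filter on low values, of 70 in the tables. The filter left out most of the short histone genes. It used the mean over LMNB1 and IGG libraries together, so a short gene could pass through its IGG value alone. The median therefore does not stand for the whole list, and the 16 became 8 with no filter and 10 without IGG replicate 1. H3c1 was lowest, with relative values of 0.221, 0.244 and 0.222 for LMNB1 and 1.32, 1.14 and 0.935 for IGG (-1.89, SE 0.29, adjusted p = 1.5e-06). The only higher one was H2bw2 (0.97), a histone variant gene on the X chromosome.

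Hox genes, which pattern the body axis later in development and are held silent by Polycomb in stem cells, had no member called higher. Of 43 Hox cluster genes, 34 were lower and 0 higher (median -0.73), at a level per kb of 0.872, 0.788 and 0.856 for LMNB1 against 1.69, 1.36 and 1.30 for IGG. Of the 43, 6 were lower after the GC correction, a share near the 13.8% of all genes and below that of protein-coding genes (5105 of 20867). Of 19 Wnt ligands, 15 were lower and 2 higher (median -0.61), from Wnt1 (-1.22) to Wnt2 (0.55, SE 0.13), and 5 were lower after correction, a share near that of protein-coding genes. MicroRNA genes had 127 of 869 lower and 82 higher (median -0.21), both below the shares over all genes, and the 127 became 70 without LMNB1 replicate 2 and 79 without IGG replicate 1.

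Of 7 core pluripotency genes tested (8 in the list), 5 were lower and 0 higher, with a median of -0.81, beside 39.4% of protein-coding genes lower. With the GC correction 2 of the 7 were lower, Lin28a and Sall4, beside 5105 of 20867 protein-coding genes. Pou5f1, which encodes the pluripotency factor OCT4, had relative values of 1.57, 1.30 and 1.12 for LMNB1 and 3.21, 2.40 and 2.47 for IGG (-0.96, SE 0.20, adjusted p = 0.00018). Sox2 had 0.506, 0.415 and 0.567 against 0.941, 0.930 and 0.954 (-0.81, SE 0.27, adjusted p = 0.014). The RNA-binding protein gene Lin28a was lowest (-1.15), Sall4 had -0.85 and Utf1 -0.77. Zfp281 (-0.16) and Trim28 (-0.14) were not called. Only 3 of the 7 were called lower without LMNB1 replicate 2.

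Among 20 genes of naive pluripotency, which EpiLCs switch off, 5 were higher (Zfp42, Dppa2, Dppa4, Fbxo15 and Nr0b1) and 6 lower (Klf2, Tbx3, Stat3, Fgf4, Tfap2c and Esrrb). The higher share lay near the 26.8% of protein-coding genes, and the lower share was below their 39.4%. After the GC correction 5 of the 20 were higher and 2 lower, beside 3178 and 5105 of 20867 protein-coding genes. The corrected higher share was thus above that of protein-coding genes, and the corrected lower share was below it. Zfp42, for the naive marker REX1, had 6.01, 5.67 and 6.56 for LMNB1 and 3.79, 3.53 and 4.08 for IGG (0.66, SE 0.14, adjusted p = 0.00023). Klf2, a factor of the naive network, had 1.1, 1.66 and 1.19 against 2.69, 2.81 and 2.51 (-0.99, SE 0.20, adjusted p = 0.00013). The call of Klf2 was lost with the GC correction (-0.39, adjusted p = 0.10). Nanog (0.17, adjusted p = 0.38), Klf4 (-0.42, adjusted p = 0.14) and Prdm14 (-0.27, adjusted p = 0.18) were not called.

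Genes of the primed epiblast, which EpiLCs switch on, had 4 of 17 higher (Cdh2, Fgf5, Lin28b and Epha4) and 7 lower (Pou3f1, Etv4, Dnmt3a, Dnmt3b, Grhl2, Otx2 and Lef1), shares close to the 26.8% and 39.4% of protein-coding genes. Fgf5, a marker of this state, had 7.03, 8.13 and 7.74 for LMNB1 and 5.1, 5.63 and 4.86 for IGG, a difference of 0.55 (SE 0.13, adjusted p = 0.00092) with no overlap. Pou3f1, for the factor OCT6, had 0.857, 0.780 and 0.522 against 1.79, 1.53 and 2.09 (-1.23, SE 0.24, adjusted p = 8.9e-05). The de novo DNA methyltransferase genes Dnmt3a (-0.66) and Dnmt3b (-0.58) were lower, and Otx2 by less (-0.39, adjusted p = 0.035). With the GC correction 0 of the 17 were higher and 3 lower (Pou3f1, Grhl2 and Lin28b), and Cdh2 (-0.06) and Lin28b (-0.56) turned sign. The calls of Fgf5, Dnmt3a, Dnmt3b and Otx2 were lost (adjusted p = 0.42, 0.19, 0.081 and 0.24).

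Lists of the germ layers and of extraembryonic tissue held 0 to 3 genes called higher each. In endoderm, 3 of 22 were higher, namely Cubn (1.01), a receptor of yolk sac endoderm, Afp (0.99), for the fetal serum protein alpha-fetoprotein, and Dab2 (0.47), and 9 were lower (40.9%, beside 39.4% of protein-coding genes), with Gata4 (-0.75) and Gata6 (-0.65) the lowest. The 9 became 5 without LMNB1 replicate 3, and after the GC correction 5 endoderm genes were higher and 4 lower. Fgfr2 was called lower both ways, but its entry spans 2961.6 kb and many other protein-coding genes, so its value is that of the region. In mesoderm, 0 of 22 were higher and 9 lower (40.9%, beside 39.4% of protein-coding genes), among them Snai1 (-1.09), Lhx1 (-1.08), Nodal (-0.96) and Fgf8 (-0.92), while T (-0.45) and Eomes (0.03) were not called. After the GC correction 3 mesoderm genes were higher (Gsc, Msgn1 and Tal1) and 2 lower (Lhx1 and Snai1). Among 12 trophoblast genes, the placental prolactin genes Prl3d1 (1.46) and Prl3b1 (0.99) were higher, and Ascl2 (-0.89), Krt8 (-0.61), Krt7 (-0.60) and Tfap2a (-0.59) were lower. The trophoblast shares were 16.7% higher and 33.3% lower, below the 26.8% and 39.4% of protein-coding genes. None of the 6 trophoblast calls was kept after the GC correction, which left 0 higher and 0 lower.

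Of 15 neural genes, 3 were higher and 7 lower, not far from the 26.8% and 39.4% of protein-coding genes. Map2, a long gene for a dendritic microtubule protein, had 80.8, 104 and 81.8 for LMNB1 and 36.8, 41.5 and 41.5 for IGG (1.15, SE 0.11), and Neurod1 (0.66) was higher too. Tubb3 (-1.02), Nes (-0.97) and Neurog1 (-1.22) were lower, and the call of Neurog1 was lost with the GC correction (adjusted p = 0.096). Of 16 germline genes, 6 were higher (Asz1 0.96, Sycp3 0.94, Dazl 0.83, Mael 0.52, Slc25a31 0.38 and Sycp1 0.36) and 4 lower (Tdrd1, Hormad1, Mov10l1 and Piwil2). These shares were 37.5% and 25.0%, beside 26.8% and 39.4% of protein-coding genes. None of the 6 higher genes remained higher with the GC correction, after which 9 of the 16 were lower, beside 5105 of 20867 protein-coding genes.

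The list of nuclear envelope genes held the lamins, their membrane partners and heterochromatin factors tied to them. Of the 22, 13 were lower and 1 higher (median -0.40), beside 39.4% and 26.8% of protein-coding genes, and 9 lower and 1 higher after the GC correction, beside 5105 and 3178 of 20867. Lmna, for the A-type lamins, was lowest, with 6.09, 4.62 and 5.97 for LMNB1 and 18.3, 13.1 and 10.2 for IGG (-1.28, SE 0.15, adjusted p = 1.0e-08). Lmnb2 was lower by 0.82 on the log2 scale, and Lmnb1, the gene of the mapped protein, had 9.81, 10.2 and 10.8 against 12.4, 12.5 and 12.5 (-0.28, SE 0.11, adjusted p = 0.041). Lbr, for the lamin B receptor, had -0.35 (adjusted p = 0.029), and Tmpo, for LAP2, was not called (-0.07, adjusted p = 0.65). The calls of Lmnb1, Lmnb2 and Lbr were lost with the GC correction (adjusted p = 0.18, 0.16 and 0.13), and that of Lmna was kept. The only higher one was Syne1 (0.57), the long gene of the linker protein nesprin 1.

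For 1 value per library, namely the median level per kb of a list, 3 libraries against 3 allow no two-sided exact permutation p below 0.1. That smallest value was reached by most lists above, including the olfactory, vomeronasal, immunoglobulin, ribosomal, Hox and core pluripotency lists. Lists with shares near those of protein-coding genes reached 0.1 too, among them the Zfp, clustered protocadherin, primed epiblast and endoderm lists. The value therefore does not set one list apart from another. A p of 0.1 was not reached by the trace amine receptors and trophoblast genes (exact permutation p = 0.2), neural genes (0.3), germline genes (0.6) and keratin-associated proteins (0.7).

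Calls came in long stretches along the chromosomes. For genes called higher, the next tested gene at least 2 kb away was also higher in 66.9% of 8110 pairs and lower in 0.1%. For genes called lower it was also lower in 64.9% of 12259 pairs and higher in 0.1%. A pair was counted only where the next gene lay below an upper limit that grew with the distance. Many of the 17822 higher and 16029 lower genes therefore gave no pair at 2 kb. Beyond 1000 kb the same call was found in 57.9% and 44.6%, and beyond 5000 kb in 42.9% and 23.6%, the second near the 22.8% of all genes. Neighbours share regional GC content and, where they touch, bins, so these shares are a description.

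**Figure D4:**
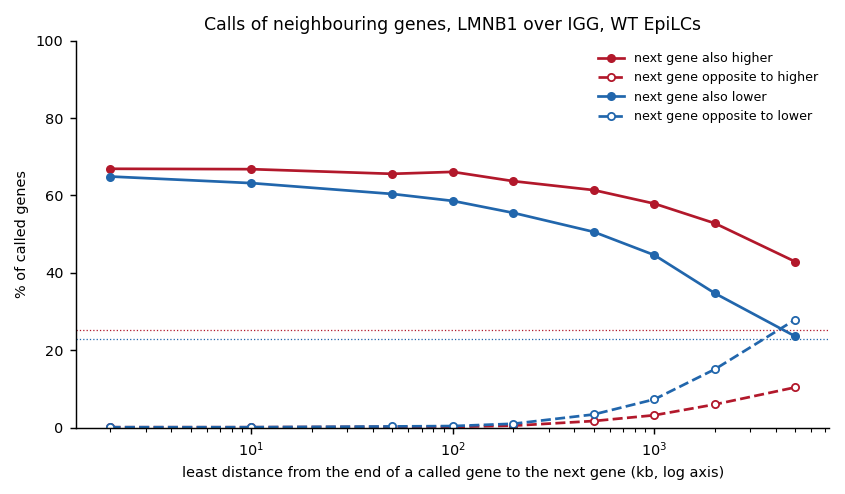
Pairs of a gene called higher (red) or lower (blue) and the next tested gene at least the given distance away (kb, log axis). Lines give the percent of pairs whose next gene had the same call (solid line) or the opposite call (dashed line). Called genes whose next gene lay beyond an upper limit, which grew with the distance, were left out. Dotted lines mark the shares of all genes called higher (25.3%) and lower (22.8%). At 2 kb the same call stood at 66.9% and 64.9%, and at 5000 kb at 42.9% and 23.6%.

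Unbroken runs of at least 10 genes with one call numbered 301 for higher and 204 for lower. The longest higher run held 66 genes at chr10:129147049-130378402, with the Or6c olfactory receptors and Vmn2r84 to Vmn2r87, at a median difference of 1.73. A run of 62 genes at chr1:173160825-175320066 held the interferon-inducible Ifi genes and olfactory receptors (median 1.41). A run of 48 genes at chr5:87272226-88292917 held the Ugt2 glucuronosyltransferase genes and the milk casein genes (median 1.5), with Csn1s1 at 2.04 (SE 0.19, adjusted p = 8.4e-11) and Csn2 at 1.90. The longest lower run held 64 genes at chr8:70624996-71316409, from Tmem161a to Kcnn1 and including Jund (median -0.83). A run of 34 lower genes at chr15:101854436-102309026 reached from Krt78 through Krt8 and Krt18 to Sp7 (median -0.84).

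Chromosomes differed in the same sense. The X had 883 of 2176 genes higher and 83 lower, with the largest median (0.47), and chromosomes 3 (0.24) and 1 (0.22) followed. Chromosome 11 had 554 of 4224 higher and 1750 lower, with the smallest median (-0.41), beside chromosomes 19 (-0.25), 15 (-0.24) and 4 (-0.22). With the GC correction the X had 372 higher and 170 lower (median 0.11), and chromosome 11 had 394 and 862 (-0.17). The medians of chromosome 19 (-0.20) and of the Y (-0.55) were then below that of chromosome 11. On the Y, 103 of 1014 were higher and 17 lower (median 0.15), which became 4 higher and 304 lower with the GC correction. The level per kb of chromosome 8 was above 1 with both antibodies, at 1.33 to 1.38 for LMNB1 and 1.44 to 1.49 for IGG, as was that of chromosome 6 (1.19 to 1.26 and 1.08 to 1.1). The Y stood at 0.267 to 0.309 and 0.231 to 0.286, and the X at 0.594 to 0.686 and 0.432 to 0.464. The part of copy number in the differences was not tested.

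Classes of pseudogenes differed. Of 7417 processed pseudogenes, the reverse-transcribed copies of messenger RNAs, 1943 were higher (26.2%, near the 25.3% of all genes) and 216 lower (2.91%), with a median of 0.35, and 1095 higher and 271 lower after the GC correction. Of 1327 unprocessed pseudogenes, which arise by duplication, 588 were higher and 44 lower (median 0.58), and 150 higher and 50 lower after the correction. Unitary pseudogenes, whose gene was lost without a copy, had 7 of 53 higher and 16 lower, and 5 of 64 higher and 25 lower among the transcribed ones. Over all genes 25.3% were higher and 22.8% lower. After the correction the unitary counts were 5 higher and 5 lower, and 4 higher and 10 lower among the transcribed ones. The corrected shares of all genes were 12.9% and 13.8%. Long noncoding RNA genes were balanced, with 7492 of 31510 higher and 6889 lower. Short reads may not tell a processed pseudogene from its parent gene.

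For TEs the tested value was the mean of all copies of a family, divided by the median family of the library. Here 364 families were higher (29.3%) and 338 lower (27.2%), 56.6% of the 1241. The differences were small beside those of genes, with the 10th percentile at -0.23 and the 90th at 0.27 on the log2 scale, and 1 family was called at least 2-fold higher (0.0806%) and 3 lower (0.242%). The libraries lay wholly apart in 410 families with LMNB1 above IGG (33.0%) and in 399 with it below (32.2%). The balance again rests on the scale. Divided by the median gene instead, 1108 families were higher (89.3%) and 10 lower (0.806%), around a median of 0.41. Divided by the mean, 1049 were higher and 3 lower around a median of 0.52, and on the spike-in scale 1203 were higher and 0 lower around 1.26. Directions below are relative to the median family. The GC correction was made for genes only, so the part of GC content in the TE differences was not tested.

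LINE-1 elements, the autonomous retrotransposons that fill AT-rich and gene-poor DNA, held most of the higher groups. Of 20 Lx families, rodent LINE-1 of middle age, 19 were higher and 0 lower (median 0.39), all 6 L1_Mus and L1_Mur families were higher (median 0.45), and of 25 L1Md families, the youngest in the mouse, 21 were higher and 0 lower (median 0.30). L1_Mur2 had relative levels of 1.41, 1.52 and 1.41 for LMNB1 and 0.960, 1.02 and 1.03 for IGG over 19681 copies (0.49, SE 0.04, adjusted p = 0.0004). Lx2B had 1.48, 1.60 and 1.52 against 1.04, 1.08 and 1.11 (0.48). The 4 L1Md families not called were all from the subfamilies A, Tf and Gf, which are known to hold copies still able to move. L1MdTf_I had 4.05, 3.95 and 4.39 against 4.23, 4.07 and 3.58 (0.06, adjusted p = 0.5), and L1MdGf_I (0.02), L1MdTf_II (0.07) and L1MdA_I (0.10) were likewise not called. L1MdFanc_II was the highest of the group (0.41). Lx5c, the exception among Lx, had -0.20 (adjusted p = 0.21), which turned to 0.41 when the median over copies was used. The ancient L1M families were balanced, with 23 of 72 higher (31.9%) and 24 lower (33.3%), beside 29.3% and 27.2% of all families.

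SINEs, short elements copied by the LINE-1 machinery and dense around genes, were on the other side. Of the 34 families of the class, 33 were lower and 0 higher (median -0.33). All 15 B1, all 5 B2 and all 8 B4 and ID families were lower, with medians of -0.36, -0.39 and -0.29. B2_Mm1a had 0.862, 0.760 and 0.804 for LMNB1 and 1.24, 1.16 and 1.17 for IGG (-0.51, SE 0.05, adjusted p = 0.00043), and B1_Mm, at -0.22, moved least among B1. Divided by the median gene the SINEs were close to it: 4 of 34 were higher and 0 lower, with medians of 0.05 for B1 and 0.02 for B2. The old L2, L3, CR1 and MIR families had 8 of 38 higher (21.1%) and 12 lower (31.6%), beside 29.3% and 27.2% of all families.

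**Figure D5:**
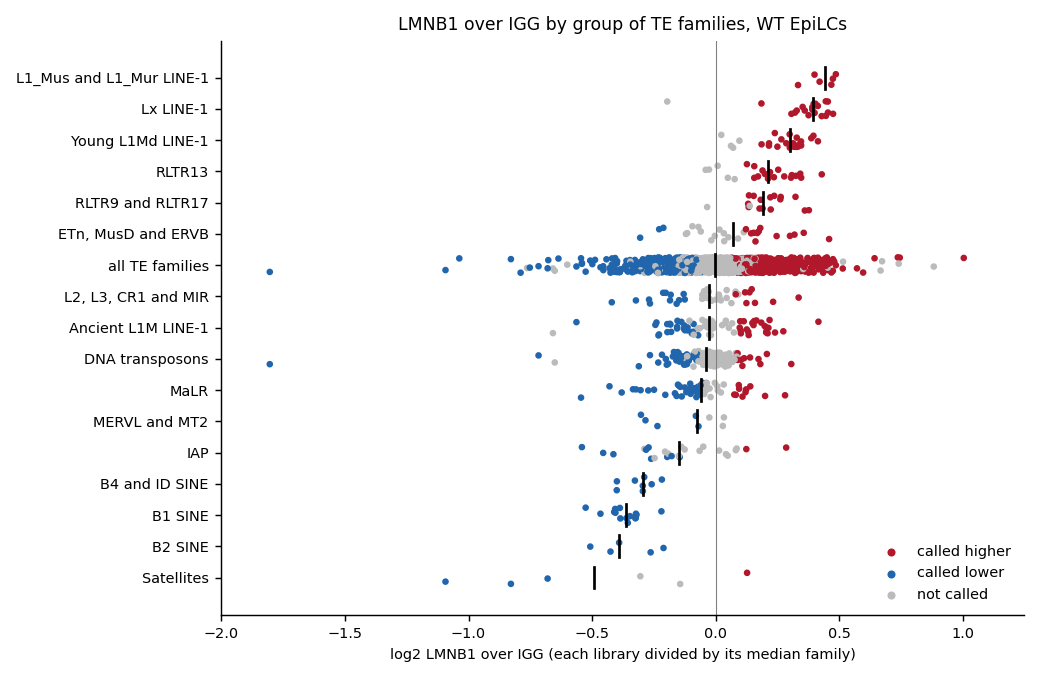
Log2 LMNB1 over IGG of each TE family by group, with each library divided by its median family; black ticks are group medians and colours give the call. Lx and L1_Mus and L1_Mur LINE-1 families lie to the right (medians 0.39 and 0.45), and all B1, B2, B4 and ID families lie to the left.

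Families of endogenous retroviruses went both ways. Of 23 RLTR13 families 18 were higher and 0 lower (median 0.21), and of 17 RLTR9 and RLTR17 families 15 were higher and 0 lower (median 0.19). ETn, MusD and ERVB families had 12 of 28 higher and 3 lower (median 0.07). IAP families, the most active retroviruses of the mouse genome, had 2 of 25 higher and 9 lower (median -0.15), and the 9 became 3 without LMNB1 replicate 2. The 9 were 36.0% of the IAP group, beside 27.2% of all families. The median IAP level per library gave an exact permutation p of 0.2. Their full-length family IAPEz-int had 1.99, 1.80 and 2.16 against 2.83, 3.46 and 2.56 (-0.54, SE 0.12, adjusted p = 0.0095). MERVL and its MT2 repeats, known from the 2-cell embryo, had 0 of 8 higher and 5 lower, with MERVL-int at -0.24, and the count was 3 without any one of 4 libraries. MaLR families had 10 of 63 higher and 34 lower (median -0.06), and 22 lower without LMNB1 replicate 2. The highest family with at least 100 copies was MER67D, of the ERV1 group, with 1.28, 1.38 and 1.28 against 0.816, 0.825 and 0.861 (0.60, SE 0.04, adjusted p = 0.0004), followed by RMER6-int (0.57).

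DNA transposons differed by superfamily. Of 303 families of the class, 54 were higher and 107 lower. Among hAT-Charlie 5 of 80 were higher and 45 lower, and among hAT-Tip100 2 of 54 were higher and 30 lower, whereas 18 of 41 families with no named superfamily and 5 of 6 PIF-Harbinger families were higher. The narrower list in the plot of TE groups had 11 of 121 higher and 41 lower. The lowest family of all was FordPrefect, of the hAT-Tip100 group, with 1.75, 1.49 and 1.77 for LMNB1 and 10.9, 3.74 and 5.44 for IGG over 270 copies (-1.80, SE 0.36, adjusted p = 0.0071). The median over its copies gave 0.09, so the direction depends on how copies are summarised. Satellite families differed in their number of annotated copies. Major satellite, GSAT_MM, had 1139, 805 and 895 for LMNB1 and 1901, 2683 and 1562 for IGG over 51 annotated copies (-1.09, SE 0.35, adjusted p = 0.036), and -0.49 with the median over copies, where the call was lost (adjusted p = 0.16). SYNREP_MM (-0.83, 26 copies) turned to 0.30 with the median over copies. ZP3AR, with 2586 copies, was lower with the mean (-0.68, adjusted p = 0.00043) and with the median over copies (-0.71, adjusted p = 0.0019). Of the 6 satellite families in the plotted list 3 were called lower and 1 higher, and the 3 became 1 without any one of 4 libraries. The whole satellite class held 8 families, of which 5 were lower and 1 higher.

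The map in naive mESCs came from separate LMNB1 and IGG libraries and shared most calls. Of the genes called higher in EpiLCs, 15163 were also higher in naive mESCs, 85.1% of the EpiLC list and 72.1% of the naive list of 21030 (29.9% of genes). Of those called lower, 12872 were lower in both, 80.3% of the EpiLC list and 70.7% of the naive list of 18201 (25.9% of genes). Opposite calls were made for 3 and 19 genes. For TE families, 294 were higher in both (80.8% of the EpiLC list and 85.0% of the naive list of 346, 27.9% of families), 295 were lower in both (87.3% and 82.9% of 356, 28.7% of families), and 0 had opposite calls.

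The difference between the stages was tested as an interaction. It was called in the direction of more LMNB1 over IGG in EpiLCs at 3 genes (0.00426%) and of less at 17 (0.0242%), beside 7643 genes (10.9%) at an unadjusted p under 0.05. The test was weak: in simulated data of this size it recovered 45% of 2-fold and 4% of 1.5-fold stage differences. No gene of any list above was called. Tested with edgeR on the recovered reads, 15 genes were higher and 37 lower. With the GC correction 430 were higher and 434 lower, and without naive LMNB1 replicate 2 the counts were 182 and 195. The balance of directions was therefore not firm.

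Sinhcaf, for a subunit of the SIN3 histone deacetylase complex, had the largest difference among the protein-coding genes named here. Its relative values in EpiLCs were 7.01, 6.55 and 6.61 for LMNB1 and 6.76, 8.95 and 7.55 for IGG, a difference of -0.19, whereas in naive cells they were 15.1, 14.2 and 16.4 against 7.17, 7.10 and 6.25, a difference of 1.14. The LMNB1 libraries of the stages did not overlap, and the IGG libraries did. The stage difference was -1.34 (SE 0.18, adjusted p = 0.0014). Naf1, a ribonucleoprotein assembly factor, had 9.40, 11.3 and 11.7 for LMNB1 in EpiLCs and 27.5, 18.9 and 21.7 in naive cells, with IGG between 8.08 and 9.00 in all 6 libraries. The others named by the rule were Utp18 (-1.15), a ribosome biogenesis factor, Xiap (-1.07), an inhibitor of apoptosis, and Rsbn1l (-1.02).

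In the other direction, Grm4, for a metabotropic glutamate receptor, was depleted at both stages and less so in EpiLCs. Its values were 15.6, 14.0 and 14.1 for LMNB1 against 28.0, 22.3 and 24.7 for IGG in EpiLCs, and 5.12, 8.07 and 7.77 against 21.4, 26.4 and 23.4 in naive cells. The stage difference was 1.00 (SE 0.19, adjusted p = 0.042), and Fam222a had 0.98 (SE 0.19, adjusted p = 0.047). The count of called genes is not firm, since it went from 20 to 377 without naive LMNB1 replicate 2, and to between 1 and 5 without any one of 9 other libraries (EpiLC LMNB1 replicates 1 and 3, EpiLC IGG replicates 2 and 3, naive LMNB1 replicates 1 and 3, and all 3 naive IGG libraries). Among TE families 0 were called by limma, with 60 (4.83%) at an unadjusted p under 0.05, and dividing by the mean gave 3.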

How the data were processed

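LMNB1 and IGG were profiled by CUT&RUN in WT EpiLCs and WT naive mESCs, with 3 libraries per group, and groups were taken from the sample labels. Per the labels and methods, the authors aligned reads to mm39 with Bowtie2 2.3.5.1, kept properly paired, non-duplicate reads with SAMtools 1.10 and computed coverage with deepTools. The deposited signal of genes is a sum over 1 kb bins of reads scaled per library and by a yeast spike-in factor. For TEs the methods name 10 kb bins, whereas 1 read was worth 0.88 to 0.93 of its gene value in the EpiLC libraries, close to what 1 kb bins would give. The width of the TE bins was not settled, and with wide bins a TE value would include its surroundings. Overlapping genes share the reads of a bin, and blacklisted regions were removed for genes only.

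Whole reads were recovered from the gene signal, with 100.0% of values within 0.05 of a whole number of reads in every library, and edgeR on those reads called 33939 genes. Totals of the EpiLC libraries ranged from 14058614 to 36280278 reads, and low genes have the larger errors. The tenth of genes with the lowest mean was left out. Values were divided by the median gene or family of the library and compared as log2(value + 0.1) with limma 3.58.1 (R 4.3.3) with an intensity trend, tested on simulated data, and with Benjamini-Hochberg adjustment over the whole table. Alternatives used edgeR 4.0.16 and DESeq2 1.42.0 on recovered reads, other scalings, pseudocounts of 0.5 and 0.01, filters, single libraries left out, a replicate block and a GC correction.

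Named genes were the 10 highest and 10 lowest called protein-coding genes of at least 10 kb whose libraries did not overlap, spaced by at least 1 Mb, the members of the gene lists given by symbol, and the extremes of each family. Named TE families had at least 100 copies or were the extremes of a group, and 5 genes in each direction were allowed for the difference between stages. Csn1s1 and Csn2 were named after their values were seen. The members and lists were chosen with earlier results of these data known. The other antibodies and genotypes of the series were not analysed here. Results for a few genes are not reported here.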

Additional observations from a re-analysis of the deposited data

Results flagged for a closer look

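The 7 protein-coding genes named for a difference between the stages passed the interaction test between EpiLCs and naive mESCs (limma, adjusted over all genes). The call of Sinhcaf was kept without any one of the 12 libraries. The calls of the other 6 were lost without any one of EpiLC IGG replicate 3, EpiLC LMNB1 replicates 1 and 3, naive IGG replicate 1 and naive LMNB1 replicate 3. On the deposited spike-in scale and with no filter on low values 0 genes were called, so all 7 calls were lost there. With the replicate block 2 genes were called in all. The difference is LMNB1 over IGG in EpiLCs minus that in naive mESCs, on the log2 scale. It was positive for Grm4 (1.005) and Fam222a (0.979). It was negative for Sinhcaf (-1.337), Utp18 (-1.147), Naf1 (-1.1), Xiap (-1.072) and Rsbn1l (-1.025). For the 5 genes with a negative difference, the naive LMNB1 libraries lay above the naive IGG libraries, and the EpiLC LMNB1 libraries lay below all naive LMNB1 libraries.
Rsbn1l had relative values of 12.4, 13.6 and 11.9 for LMNB1 and 14.0, 12.3 and 13.4 for IGG in EpiLCs, and 28.2, 22.2 and 26.1 against 12.6, 13.0 and 13.6 in naive mESCs. Xiap had 4.92, 6.29 and 5.62 against 4.76, 5.98 and 4.69 in EpiLCs, and 14.7, 11.6 and 11.9 against 5.86, 5.17 and 5.35 in naive mESCs. Utp18 had 4.87, 6.44 and 4.50 against 5.91, 6.00 and 6.38, and 9.92, 9.60 and 10.7 against 5.53, 5.36 and 4.89. Fam222a had 8.82, 7.07 and 8.78 against 14.9, 11.9 and 13.8 in EpiLCs, and 3.16, 4.00 and 4.19 against 12.3, 12.8 and 12.1 in naive mESCs.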

How the results depend on the processing

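The count of 33851 genes called became 18771 with the GC correction, chosen after seeing the data, and 18661 of the 26570 genes of at least 10 kb. Without 1 library it ranged from 26881 to 31462. The 702 TE families became 1203 on the deposited spike-in scale, 1118 when divided by the median gene and 364 with the median over copies, and without 1 library 546 to 648. The 20 genes that differed between stages became 0 on the spike-in scale, 37 with a pseudocount of 0.5, 2 with 0.01, 0 with no filter, 52 with edgeR, 52 among genes of at least 10 kb and 864 with the GC correction. Without 1 library they ranged from 1 to 377. For TE families this count was 0, 3 when divided by the mean, and 0 without any one library. The causes were not tested.

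The replicate numbers did not pair the libraries, since deviations of the same-numbered LMNB1 and IGG libraries correlated at 0.031, 0.038 and -0.094. With the replicate block 33770 genes, 583 TE families and 2 stage genes were called.

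Among named genes called with or without the GC correction, 25 differences changed sign with it: Vmn2r129 (-0.82), Tfap2c (0.10), Cdh2 (-0.062), Lin28b (-0.56), Wnt3 (0.071), Tal1 (0.42), Prl3b1 (-0.13), Lhx2 (0.0796), Dazl (-0.29), Taf7l (-0.59), Sycp3 (-0.0069), Stk31 (-0.71), Ddx4 (-0.59), Sycp1 (-0.59), Slc25a31 (-0.57), Mael (-0.11), Lemd3 (-0.33), Syne3 (0.0275), Opcml (-0.12), Fhit (-0.093), Csmd1 (-0.087), Magi2 (-0.10), Unc5d (-0.064), Naf1 (-0.48) and Xiap (-0.38). Among named families called with the mean or the median over copies, FordPrefect (0.089), MTC-int (0.13), Lx5c (0.41) and SYNREP_MM (0.30) changed sign with the median. TMM scaling gave 34197 genes, edgeR 33939 and DESeq2 32620.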
